A study of Mus musculus with 10 samples.

Results

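WASP loss was examined here within one class of mouse T cell lymphoma, the tumours with a low level of Cd2, which encodes an adhesion receptor of T cells. Gene expression had been measured on 1 microarray per mouse in primary mediastinal lymphomas of 10 mice. The 7 arrays used here were chosen by their measured Cd2 level, under log2 9, and comprised 3 of the 5 WT arrays (replicates 1, 2 and 3) and 4 of the 5 WASP -/- arrays (replicates 2, 3, 4 and 5). The remaining 3 arrays, WT replicates 4 and 5 and WASP -/- replicate 1, had high Cd2. All groups carried the NPM-ALK transgene on a c57BL/6 background, so WT means NPM-ALK transgenic with intact WASP, and WASP -/- means NPM-ALK transgenic and WASP-deficient. The mice received no treatment, and their tumours arose spontaneously at 4 to 5 months of age. Females or males without WASP were used, with no sex given for a single animal. The labels name no promoter for the transgene. The split into Cd2-low and Cd2-high tumours was made from the arrays, not by the study.

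NPM-ALK is a fusion of nucleophosmin with the ALK receptor tyrosine kinase. It signals without ligand, in large part through STAT3, and is the oncogene of ALK-positive anaplastic large cell lymphoma. WASP, the product of the X-linked gene Was, is made in blood cells. Once the GTPase CDC42 binds it, WASP switches on the ARP2/3 complex, which builds branched actin, and T cells without it form poor immune synapses and migrate badly. Ybx3, also called CSDA or ZONAB, encodes a cold-shock domain protein that binds DNA and RNA and that the tight junction protein ZO-1 holds at cell junctions. Y-box proteins were named for binding promoters with a CCAAT box.

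The choice of arrays by Cd2 left a wide margin. Within the WT arrays Cd2 lay at 6.66, 6.52 and 6.10 (log2 intensity, replicates 1 to 3), and within the WASP -/- arrays at 6.62, 6.90, 6.42 and 6.11 (replicates 2 to 5). The highest level inside the set was thus 6.90, and the lowest outside it was 11.18. Defining T cell markers were present on all 7 arrays. Cd3e, a chain of the CD3 complex, lay at 12.06 to 12.38 and Thy1 at 11.86 to 12.31. Several genes of immature thymocytes were high as well, with Ptcra, the pre-T cell receptor chain, at 10.87 to 11.41, Rag1, the recombinase subunit, at 11.12 to 12.13 and Dntt, terminal transferase, at 11.17 to 12.02. Other T cell and thymocyte genes were lower or varied more, with Rag2, the partner of Rag1, at 7.12 to 9.94, Cd5 at 6.99 to 7.38 and Cd28 at 6.14 to 8.09. Tnfrsf8, which encodes the lymphoma marker CD30, lay at 7.96 to 9.01 here and at 10.31 to 10.50 on the 3 Cd2-high arrays. Cd8a and Cd4 varied within a genotype: Cd8a was at 9.41, 9.52 and 6.38 on the WT arrays and at 7.77, 7.27, 7.66 and 8.09 on the WASP -/- arrays.

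Sex-linked RNA split the arrays by genotype with 1 exception. Xist, the RNA that silences an X chromosome in female cells, lay at 11.52, 11.71 and 4.40 on WT replicates 1, 2 and 3, and at 4.92, 5.58, 4.74 and 5.11 on the WASP -/- arrays. The Y-linked gene Kdm5d was opposite, at 5.23, 5.08 and 8.68 and at 8.69, 8.20, 8.84 and 8.99. WT replicate 3 was therefore the single WT array of the set that resembled the WASP -/- arrays in these genes. Another Y-linked gene, Eif2s3y, lay at 5.96 on WASP -/- replicate 2 and at 9.25 to 9.82 on the other WASP -/- arrays. Median intensity lay between 116.7 and 122.7 on the linear scale on all 10 arrays, and the number of arrays limits the precision. In the principal components of the 7 arrays, the first (33.9% of the variance) set WASP -/- replicates 4 and 5, at 24.2 and 25.3, apart from the other 5 arrays, at -13.1 to -3.14. Differences below are log2, WASP -/- minus WT, with n = 3 WT and 4 WASP -/- arrays.

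Was fell in the WASP -/- lymphomas. Its level was 9.25, 9.12 and 9.11 on the WT arrays and 8.17, 7.92, 8.14 and 7.96 on the WASP -/- arrays. The groups did not overlap, and the distance between the lowest WT and the highest WASP -/- array, 0.94, was the widest among genes lower in every WASP -/- array. The group means were 9.16 ± 0.08 (SD, n = 3) and 8.05 ± 0.12 (SD, n = 4). The difference of -1.11 (SE 0.107, limma adjusted p = 0.0212) corresponded to 0.462 times the WT level. The Cd2-high arrays showed the same order, with WT at 9.34 and 9.27 and WASP -/- at 8.20, so that Was split all 10 arrays by their genotype label. The gene is read by 1 probe set, whose place relative to the deletion is not stated, and its mean in the WASP -/- arrays stood at the 66.1st percentile of all probe sets. In bulk tumour RNA, fewer cells of a type and less RNA per cell cannot be told apart.

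Ybx3 rose in the same comparison. It lay at 8.16, 7.75 and 8.29 on the WT arrays and at 10.18, 9.88, 10.72 and 10.29 on the WASP -/- arrays. All 4 WASP -/- arrays stood at least 1.59 above the highest WT array, the widest distance among the genes higher in every WASP -/- array. The means were 8.07 ± 0.28 (SD, n = 3) and 10.27 ± 0.35 (SD, n = 4), a difference of 2.20 (SE 0.206, limma adjusted p = 0.0212), or 4.59-fold. Ybx3 is named here because earlier results of these arrays were known, so its p is not independent support. WT replicate 3 had the highest Ybx3 of the WT arrays, 8.29. It was the only WT array of the set with low Xist, too few to test the part of the animals' sex in the Ybx3 difference. Scores for thymic epithelium genes (mean centred log2 level) were 0.47, 0.20, 0.27 and -0.14 on WASP -/- replicates 2 to 5. Those for macrophage genes were 0.33, 0.18, 0.13 and -0.29. On the WT arrays these scores were -0.40 to -0.002 and -0.27 to 0.07. The part of these cells in the Ybx3 difference was not tested. Exact two-sided permutation over the 35 assignments of 3 against 4 arrays gave p = 0.0571 for Was and for Ybx3, the smallest this design allows.

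**Figure D1:**
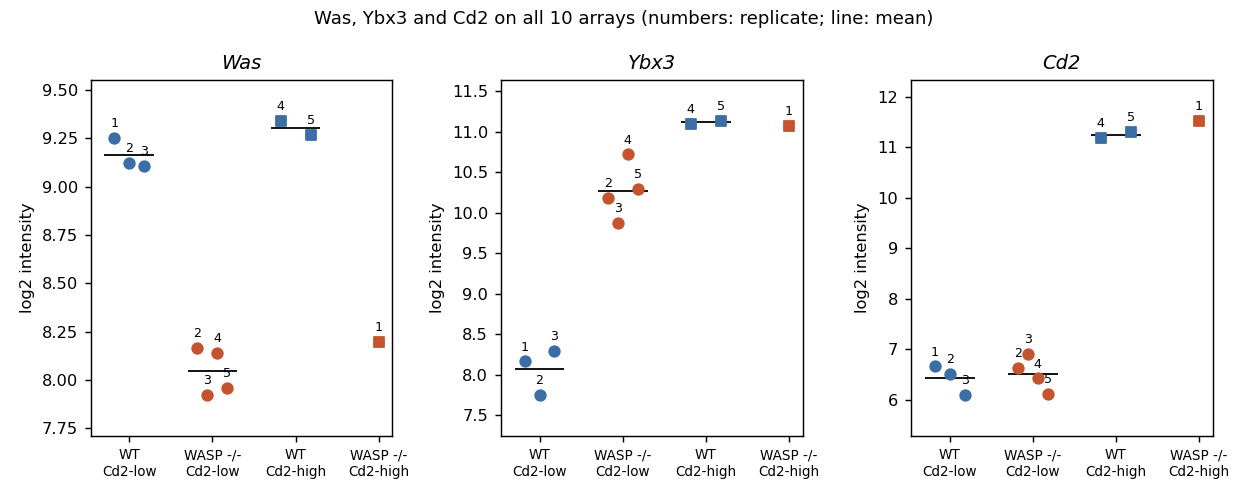
Log2 intensity (vertical axis) of Cd2, Was and Ybx3 on each of the 10 arrays, with 1 point per array labelled by replicate, lines at the means, grouped by Cd2 set and genotype. In the Cd2-low set, Was lies at 9.11 to 9.25 on the WT arrays and 7.92 to 8.17 on the WASP -/- arrays, and Ybx3 at 7.75 to 8.29 and 9.88 to 10.72, whereas on the Cd2-high arrays Ybx3 lies between 11.07 and 11.14 in both genotypes.

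The call of both genes changed with the array left out and with the spread model, while the size of the difference changed little. Over 20 other settings the difference stayed between -1.15 and -1.06 for Was and between 1.97 and 2.37 for Ybx3, and the adjusted p passed in 12 and 13 of them. Without WT replicate 1, WT replicate 2, WASP -/- replicate 3 or WASP -/- replicate 5 neither gene passed (limma adjusted p = 0.296, 0.237, 0.0805 and 0.109 for Was, 0.255, 0.188, 0.0805 and 0.109 for Ybx3). Without WT replicate 3, Ybx3 passed and Was did not (limma adjusted p = 0.0265 and 0.0578). Neither passed with Xist as a covariate, where the differences were -1.08 for Was and 1.97 for Ybx3 (limma adjusted p = 0.659 for both), nor among the Xist-low arrays alone, 1 WT array against 4, where they were -1.06 and 1.98 (limma adjusted p = 0.99996 for both). The part of the animals' sex in these differences was not tested apart from those settings.

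**Figure D2:**
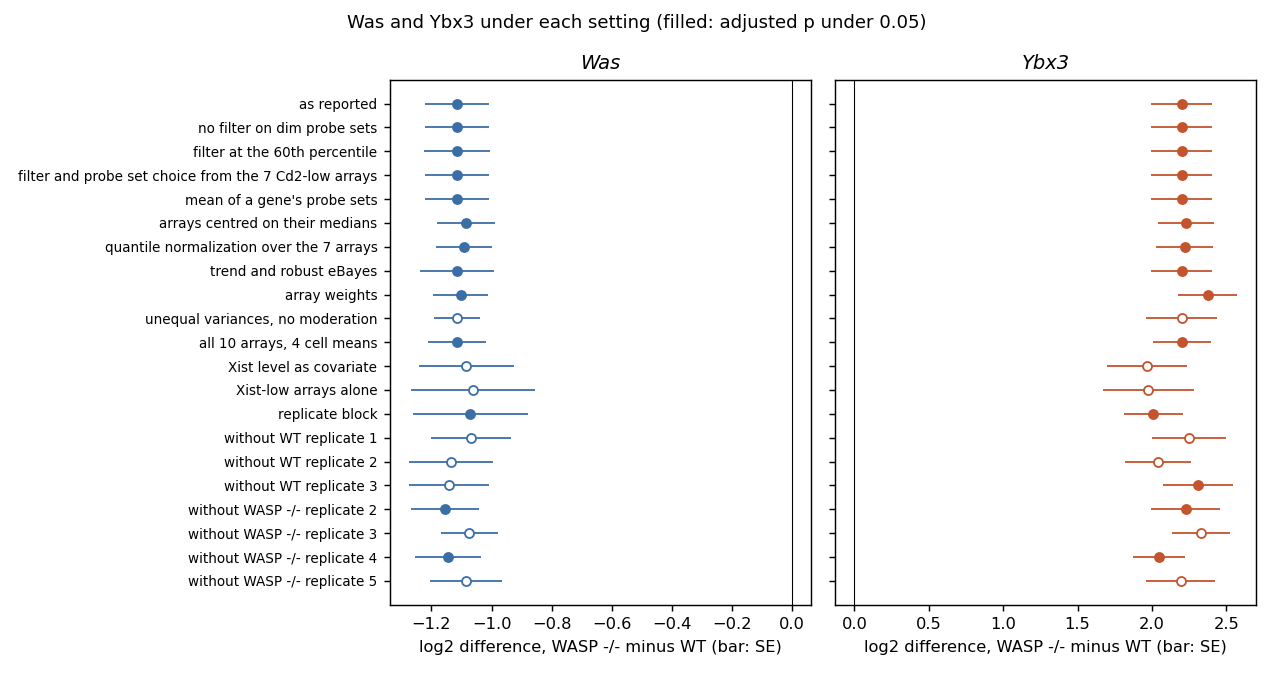
Log2 difference, WASP -/- minus WT, of Was (left) and Ybx3 (right) under each setting; points are differences, bars are 1 SE on each side, and filled points passed at an adjusted p under 0.05. All points for Was lie between -1.15 and -1.06 and all points for Ybx3 between 1.97 and 2.37, while 8 of 20 other settings for Was and 7 of 20 for Ybx3 are open.

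The promoters of the 2 genes are shown because they were the ones whose transcripts passed the test. The RefSeq sequences of GRCm38.p6 below cover the 250 bases before each gene's start, on the minus strand, for Was at chrX:8090492-8090741 and for Ybx3 at chr6:131388451-131388700. Capitals mark the GC box GGGCGG, searched with the CCAAT box CCAAT and the STAT motif TTCNNNGAA on both strands, with no overlap between matches.
Was: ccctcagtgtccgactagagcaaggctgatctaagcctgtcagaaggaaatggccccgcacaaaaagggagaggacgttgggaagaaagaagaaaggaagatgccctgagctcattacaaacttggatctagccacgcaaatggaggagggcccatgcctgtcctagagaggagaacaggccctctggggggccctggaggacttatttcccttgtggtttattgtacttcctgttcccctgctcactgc
Ybx3: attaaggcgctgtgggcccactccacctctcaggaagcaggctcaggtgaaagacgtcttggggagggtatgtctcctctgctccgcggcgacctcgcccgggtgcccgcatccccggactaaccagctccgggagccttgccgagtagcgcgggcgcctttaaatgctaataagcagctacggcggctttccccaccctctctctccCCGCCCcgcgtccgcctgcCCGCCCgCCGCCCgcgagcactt
The Ybx3 window held 3 GC boxes, all read as CCGCCC on the printed strand, and neither other motif. The Was window held none of the 3 motifs. Of 32851 promoters of the same length, 32.7% held a GC box, 33.8% a CCAAT box and 7.02% the STAT motif. The GC content was 67.2% for Ybx3 and 53.6% for Was, against a median of 52.4%. These matches describe the letters only, since the arrays measured no binding.

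Ybx3 was alone among its relatives in passing the test. Of 5 tested genes for cold-shock domain proteins, 2 were higher and 3 lower, with a median difference of -0.007 against -0.02 over all genes tested. Ybx1, the general Y-box translation regulator, lay at 11.65 to 11.84 on the WT arrays and at 11.58 to 11.94 on the WASP -/- arrays, a difference of -0.01. The junction partners and reported targets of Ybx3 had 4 of 12 tested genes higher and 8 lower, with a median of -0.0096, and 0 passed. Erbb2, a receptor tyrosine kinase gene of that list, was higher on every WASP -/- array, at a difference of 0.29, and Sympk, which encodes the junction and polyadenylation protein symplekin, was lower on every one, at -0.09. Slc7a5 and Slc3a2, which encode both chains of a leucine transporter, differed by -0.0015 and -0.01.

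On the Cd2-high arrays Ybx3 was high in both genotypes, at 11.10 and 11.14 in WT and at 11.07 in WASP -/-. The genotype difference there was -0.04, against 2.20 in the Cd2-low arrays. The difference between those differences, 2.24 (SE 0.367), did not pass (limma adjusted p = 0.0861 over all genes, between 0.00968 and 0.123 over the other settings, with the lowest under array weights). For Was it was -0.01 (SE 0.184, limma adjusted p = 0.9997). The Ybx3 levels thus fell into 3 ranges, 7.75 to 8.29 in the WT Cd2-low arrays, 9.88 to 10.72 in the WASP -/- Cd2-low arrays and 11.07 to 11.14 in the Cd2-high arrays of both genotypes. Fmnl2, a formin gene, had the same order, at 6.89 to 7.24, 7.82 to 8.21 and 9.17 to 9.57. So did the mitochondrial carrier gene Slc25a24, at 6.35 to 6.55, 7.05 to 8.03 and 8.31 to 8.74. Ccdc50 did too, at 7.64 to 8.58, 8.65 to 9.63 and 10.09 to 10.24. The MHC gene H2-Q2 had the reverse order, at 9.99 to 10.42, 8.29 to 9.71 and 6.41 to 7.10. Genes with either order were not counted. Only 1 WASP -/- array was Cd2-high, and its spread was assumed equal to that of the others.

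Over the whole transcriptome, few genes separated the genotypes. Of 12670 genes tested, Was and Ybx3 were the 2 that passed (0.0158%), and 404 (3.19%) had an unadjusted p under 0.05, where 633.5 would be expected with no difference. In direction alone, 5447 genes were higher and 7223 lower, with a median of -0.02 that was 0.0084 with each array centred on its median. The 4 WASP -/- arrays lay above all 3 WT arrays for 242 genes (1.91%) and below all of them for 273 (2.15%), 515 in all (4.06%). With no genotype difference, a gene's groups would be apart with a probability of 0.0571, given the 35 assignments of 3 against 4 arrays. The share seen was not above that, so groups that are apart do not by themselves show a difference. A difference of 1 or more was reached by 48 genes in the higher direction (0.379%) and by 7 in the lower (0.0552%), of which 14 and 2 had groups that did not overlap. The median absolute difference was 0.0866 with a median SE of 0.134. The 3 WT Cd2-low arrays lay below all other 7 arrays, both Cd2 sets together, for 86 genes (0.679%) and above them for 126 (0.994%).

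**Figure D3:**
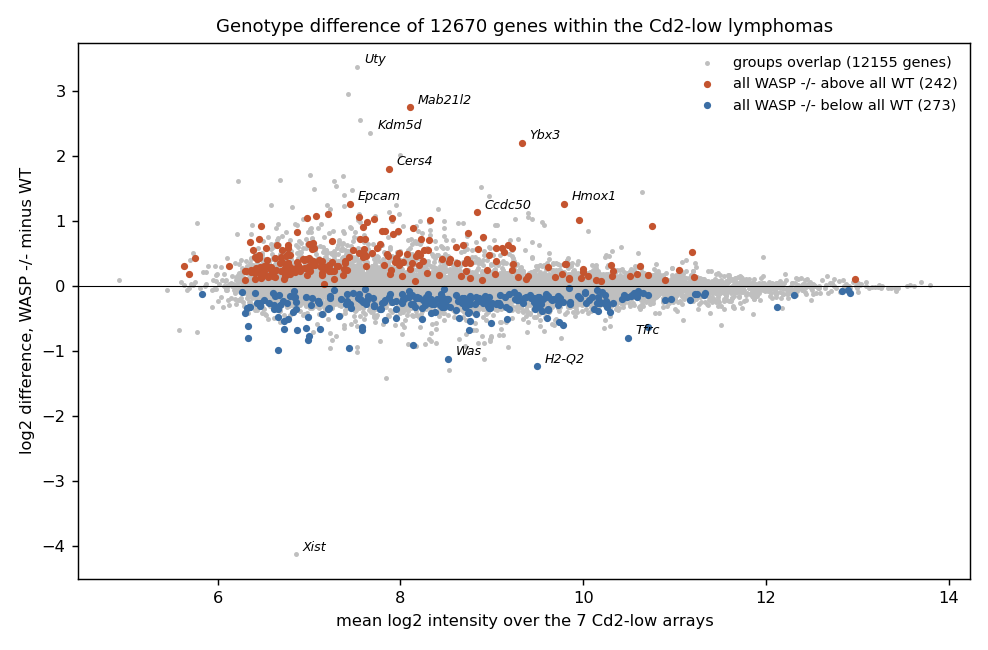
Log2 difference, WASP -/- minus WT (vertical axis), against the mean log2 intensity over the 7 Cd2-low arrays (horizontal axis), with 1 point per gene for 12670 genes. The 242 genes above and the 273 below in every WASP -/- array are coloured; Ybx3 at 2.20 and Was at -1.11 stand out from genes of like level, and Xist at -4.12 and Uty are grey because WT replicate 3 overlaps the WASP -/- arrays.

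Apart from Ybx3, the 14 largest differences among genes higher in every WASP -/- array did not pass, and their values are given as such. Mab21l2, a developmental gene of the eye and gut, had the largest, 2.74 (SE 0.844). It lay at 6.43, 6.58 and 6.62 on the WT arrays and at 6.70, 9.20, 10.31 and 10.92 on WASP -/- replicates 2 to 5, so replicate 2 stood beside the WT arrays. Cers4, a ceramide synthase gene, was similar, at 6.80, 6.82 and 6.92 against 7.17, 9.24, 8.96 and 9.24. Both passed when WASP -/- replicate 2 was left out, a setting under which 4 genes did.

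Of the named genes, Fmnl2 and Spire1 encode actin assembly factors, and others encode cytoskeletal, kinase or surface proteins. Fmnl2, the formin that elongates filaments at the leading edge, lay at 7.24, 7.08 and 6.89 on the WT arrays and at 8.14, 8.21, 7.82 and 8.07 on the WASP -/- arrays (difference 0.99, SE 0.131, limma adjusted p = 0.141). It was tight within each genotype, and it passed with array weights and in the fit over all 10 arrays. Spire1, an actin nucleator that works with formins, lay at 7.15, 7.41 and 7.38 and at 7.84, 8.05, 8.86 and 8.65 (difference 1.04). On the Cd2-high arrays Spire1 was lower than in either group, at 6.31 to 6.67. Acta2, smooth muscle actin, lay at 9.22 to 9.46 and at 9.82 to 10.93 (difference 1.01). Yes1, a SRC family kinase gene, lay at 6.58, 6.46 and 6.69 and at 7.43, 7.31, 7.91 and 8.06 (difference 1.10, SE 0.190, limma adjusted p = 0.325). Its groups were 0.62 apart, and its Cd2-high levels, 7.51 to 7.87, lay among those of the WASP -/- arrays. Adam8, a surface metalloprotease gene, lay at 7.92, 7.81 and 7.52 and at 8.65, 9.16, 8.59 and 8.62 (difference 1.01), and Gpc3, the X-linked gene of the heparan sulfate proteoglycan glypican-3, at 7.06 to 7.17 and 7.86 to 8.54 (difference 1.02, SE 0.166, limma adjusted p = 0.318).

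The WASP list itself moved little around these genes. Of 48 tested genes for WASP partners and actin nucleation, 17 were higher and 31 lower, with a median of -0.02, equal to that of all genes to 2 decimals, and Was was the 1 that passed. Fmnl2 was higher on every WASP -/- array, and Was, Hcls1 and Pstpip1 lower on every one. Pstpip1 encodes a WASP-binding adaptor and differed by -0.28, and Hcls1 encodes the haematopoietic cortactin relative and differed by -0.18. The close relative of WASP, Wasl (N-WASP), differed by 0.09 (8.70 to 8.87 in WT, 8.65 to 9.01 in WASP -/-), the WASP-stabilising partner Wipf1 by -0.17 and the upstream GTPase Cdc42 by -0.09. Spire2 and Fmnl1, relatives of the genes above, differed by 0.02 and -0.004. None of these passed.

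Of the other genes higher in every WASP -/- array, some are epithelial or metabolic. Epcam, an epithelial adhesion molecule also found in thymic epithelium, lay at 6.91, 6.24 and 7.04 on the WT arrays and at 7.79, 7.72, 8.22 and 8.24 on the WASP -/- arrays (difference 1.26, SE 0.218, limma adjusted p = 0.325). Atp4a, which encodes the gastric proton pump, lay at 6.33, 6.31 and 6.50 and at 7.29, 7.30, 7.75 and 7.34 (difference 1.04, SE 0.136, limma adjusted p = 0.141). It was near the intensity limit used for testing, 6.35, in WT, and it passed with array weights and in the fit over all 10 arrays. On the Cd2-high arrays Atp4a lay at 6.13 and 6.06 in WT and at 6.37 in WASP -/-. Its place among the tested genes thus rested on the WASP -/- Cd2-low arrays, and these passes are not independent support. Ccdc50, which encodes a ubiquitin-binding protein of receptor signalling, differed by 1.13, Slc25a24, a mitochondrial ATP-Mg carrier, by 1.07 and the amino acid transporter gene Slc6a20a by 1.06. In Ccdc50 the highest WT array, at 8.58, and WASP -/- replicate 2, at 8.65, nearly met. Slc6a20a lay at 6.98, 7.02 and 6.84 on the WT arrays and at 7.38, 7.12, 9.11 and 8.40 on WASP -/- replicates 2 to 5 (SE 0.425). Its difference thus came mostly from WASP -/- replicates 4 and 5. Slc25a24 was near the intensity limit in WT, at 6.35 to 6.55.

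A pair of genes of iron and heme handling stood among the largest in opposite directions. Hmox1, the heme-degrading oxygenase, lay at 9.26, 9.22 and 8.73 on the WT arrays and at 9.97, 10.09, 10.93 and 10.34 on the WASP -/- arrays (difference 1.26, SE 0.238, limma adjusted p = 0.540). Tfrc, the transferrin receptor that brings iron into dividing cells, lay at 11.13, 10.72 and 11.00 and at 10.01, 10.04, 10.24 and 10.33 (difference -0.79, SE 0.135, limma adjusted p = 0.325). Neither passed. On the Cd2-high arrays Hmox1 lay at 8.89 to 9.28, with the WT Cd2-low arrays, and Tfrc at 10.36 to 10.56, between the groups. A list of iron and heme genes, written after these values were seen, had 9 of 17 tested genes higher and 8 lower, with a median of 0.02 and 0 passing. Besides Hmox1, the heme transporter gene Slc48a1 was higher on every WASP -/- array, by 0.24, and besides Tfrc, the haptoglobin gene Hp was lower on every one, by -0.83. Slc40a1, the iron exporter ferroportin, had overlapping groups and a difference of 0.99, with WT replicate 3 at 5.81 and WASP -/- replicate 2 at 9.01.

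**Figure D4:**
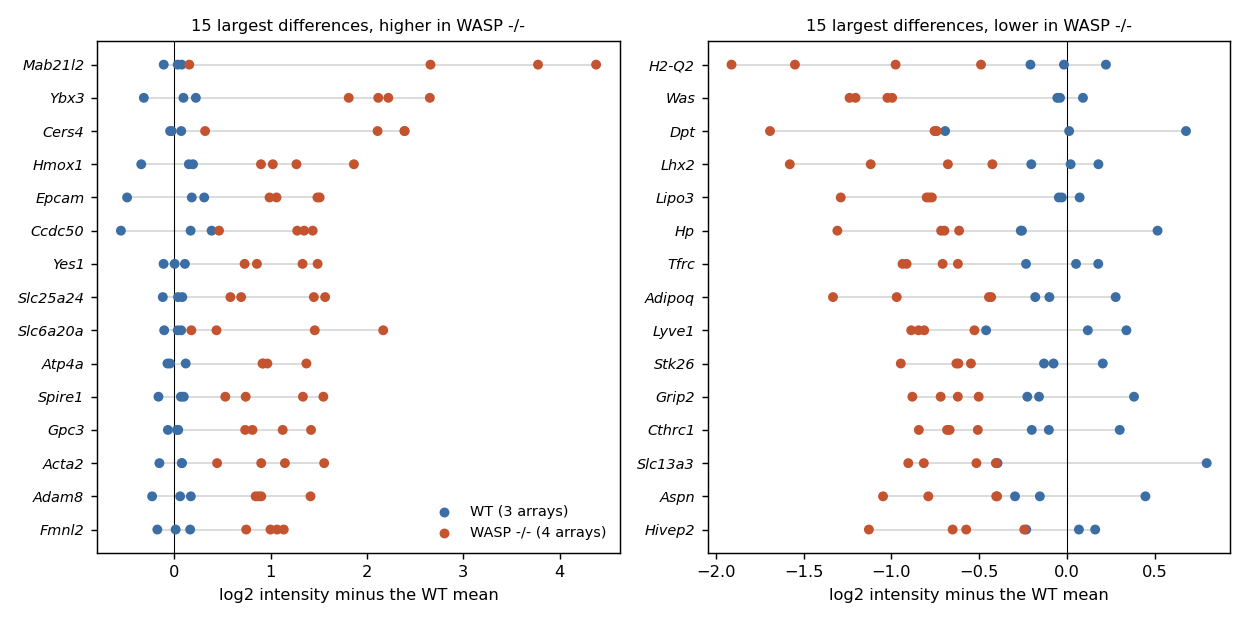
Log2 intensity minus the WT mean (horizontal axis) on each array for the 15 genes with the largest difference among those higher (left) and lower (right) in every WASP -/- array of the Cd2-low set. The 4 WASP -/- points of Ybx3 lie 1.59 or more beyond the highest WT point. In Mab21l2, Cers4 and Ccdc50 WASP -/- replicate 2 lies next to the WT points. In Slc13a3 WASP -/- replicate 5 lies next to the lowest WT point.

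Among genes lower in every WASP -/- array, H2-Q2 had the largest difference, -1.23 (SE 0.305). It lay at 9.99, 10.18 and 10.42 on the WT arrays, at 9.71, 9.22, 8.29 and 8.65 on the WASP -/- arrays and at 6.41 to 7.10 on the Cd2-high arrays. H2-Q2 belongs to the MHC class Ib family, whose members are alike in sequence, so its probe set may read relatives and its identity is uncertain. Lipo3, a lipase family gene, lay at 8.62, 8.63 and 8.73 and at 7.88, 7.37, 7.89 and 7.86 (difference -0.91, SE 0.144, limma adjusted p = 0.318), and it passed with array weights. Its WT arrays were close together, and WASP -/- replicate 3 was the lowest array. Stk26, an X-linked kinase gene, lay at 9.06, 9.01 and 9.34 and at 8.59, 8.52, 8.51 and 8.19 (difference -0.68, SE 0.135, limma adjusted p = 0.612). The transcription factor genes Lhx2 and Hivep2 differed by -0.95 and -0.65, the scaffold gene Grip2 by -0.68 and the dicarboxylate transporter gene Slc13a3 by -0.66. Grip2 lay at 7.10, 7.03 and 7.64 and at 6.75, 6.63, 6.54 and 6.38. Slc13a3 lay at 7.09, 7.10 and 8.29 and at 6.68, 6.98, 6.59 and 7.09 (SE 0.288), so its groups nearly met. WT replicate 3 was the highest array in both genes.

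The other lower genes are known from stroma, vessels and fat. Dpt, the matrix protein dermatopontin, lay at 7.23, 6.53 and 7.90 and at 6.48, 6.47, 5.53 and 6.47 (difference -0.98). Lyve1, the lymphatic hyaluronan receptor, lay at 7.78, 6.98 and 7.56 and at 6.62, 6.91, 6.59 and 6.55 (difference -0.77). Adipoq, the adipocyte hormone adiponectin, lay at 6.68, 6.60 and 7.06 and at 6.35, 6.34, 5.81 and 5.45 (difference -0.79). WT replicate 3 was highest in Dpt and Adipoq. Adipoq lay at or under the intensity limit of 6.35 on all 4 WASP -/- arrays, and Dpt under it on 1, so the size of these differences is uncertain. The matrix genes Cthrc1 and Aspn differed by -0.68 and -0.66, and none passed.

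Of these 30 genes, 10 set the WT Cd2-low arrays apart from all other 7 arrays. Higher in the other 7 arrays were Ybx3, Cers4, Epcam, Ccdc50, Yes1, Slc25a24 and Fmnl2, 7 of 15, against 86 of the 242 genes higher in every WASP -/- array. Lower in the other 7 were H2-Q2, Tfrc and Grip2, 3 of 15, against 126 of 273. Cd2 set the arrays that were compared, so the place of the Cd2-high arrays in these orders is a description.

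Markers of other cells in the tumour were read beside these genes, and none of their genes passed. For each list, a score is the mean log2 level of its tested genes, each centred on its mean over the 7 arrays. Thymic epithelium had 14 of 16 tested genes higher and 2 lower, a median of 0.31, and scores of -0.40 to -0.002 on the WT arrays and -0.14 to 0.47 on the WASP -/- arrays. Epcam and the claudin genes Cldn3 and Cldn4 were higher on every WASP -/- array, and Ly75 lower on every one. Keratin genes had large but overlapping differences, 1.47 for Krt5, 1.07 for Krt17 and 0.97 for Krt8. Krt8 lay at 7.66 to 8.53 on the WT arrays and at 8.05 to 9.48 on the WASP -/- arrays. The list's median stayed between 0.21 and 0.56 under 16 other settings. Epcam, itself part of this score, lay at 7.79, 7.72, 8.22 and 8.24 on WASP -/- replicates 2 to 5. The scores of these arrays were 0.47, 0.20, 0.27 and -0.14. Which cells gave the Epcam signal was not tested.

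Macrophage and monocyte markers had 17 of 19 tested genes higher and 2 lower, with a median of 0.17 (0.03 to 0.44 under 16 other settings, lowest without WASP -/- replicate 2). Their scores were -0.27 to 0.07 on the WT arrays and -0.29 to 0.33 on the WASP -/- arrays, and the groups overlapped. Mrc1, the mannose receptor, Fcgr3, an Fc receptor, and Lgmn, a lysosomal protease, were higher on every WASP -/- array, by 0.70, 0.60 and 0.31, while Csf1r and Adgre1, which define the lineage, had overlapping groups and differed by 0.17 and 0.30. Hmox1 is also a macrophage gene. It lay at 9.97, 10.09, 10.93 and 10.34 on WASP -/- replicates 2 to 5. The macrophage scores of these arrays were 0.33, 0.18, 0.13 and -0.29. The part of macrophages in the Hmox1 difference was not tested. The MHC class II and dendritic list had 8 of 12 higher with a median of 0.11 (-0.06 without WT replicate 2, 0.0056 without WASP -/- replicate 2 and 0.070 without WASP -/- replicate 4). Erythroid cells and platelets had 4 of 6 tested genes higher, from 17 listed genes of which 8 had a probe set. Their median of 0.48 (0.11 to 0.71 under 16 other settings) was 0.31 without WASP -/- replicate 4. It varied with the intensity filter, at 0.18 without the filter and 0.71 with the filter at the 60th percentile. Slc4a1 and Ppbp were higher on every WASP -/- array, by 0.29 and 0.92.

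Of the fat, vessel and stroma lists, the one for adipocytes had the lowest median. Adipocytes had 10 of 12 tested genes lower and 2 higher, a median of -0.27 (-0.38 to -0.18 under 16 other settings), and scores of 0.07 to 0.26 on the WT arrays and -0.44 to 0.28 on the WASP -/- arrays. WASP -/- replicate 2 had the highest of these scores and replicate 5 the lowest. Endothelium had 11 of 16 lower with a median of -0.09, which was 0.025 without WT replicate 3, and fibroblasts and stroma 12 of 20 lower, near the share over all genes, with a median of -0.12 that was -0.016 without WASP -/- replicate 4, -0.051 without WT replicate 1 and -0.052 without WT replicate 3. Lyve1 and Kdr, and Dpt and Col5a1, were lower on every WASP -/- array, and Acta2 higher. B cells had 6 tested genes of 15 with a probe set, neutrophils 2 of 15, cytotoxic and NK cells 7 of 20 and lung epithelium 6 of 14, so most markers of those cells were under the intensity limit. In these lists and among plasma cell genes (7 of 9 tested, median -0.12) no gene had groups that were apart, against 4.06% of all genes. With so few genes tested, this count shows nothing particular to these cells. Muscle genes (12 tested) had a median of -0.02. Regulatory T cell genes had 6 of 11 higher and a median of 0.18, which was 0.020 without WASP -/- replicate 2 and -0.098 with the filter at the 60th percentile, with the costimulatory receptor gene Tnfrsf9 higher on every WASP -/- array, by 0.58. The part of these cell mixtures in the gene differences was not tested.

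**Figure D5:**
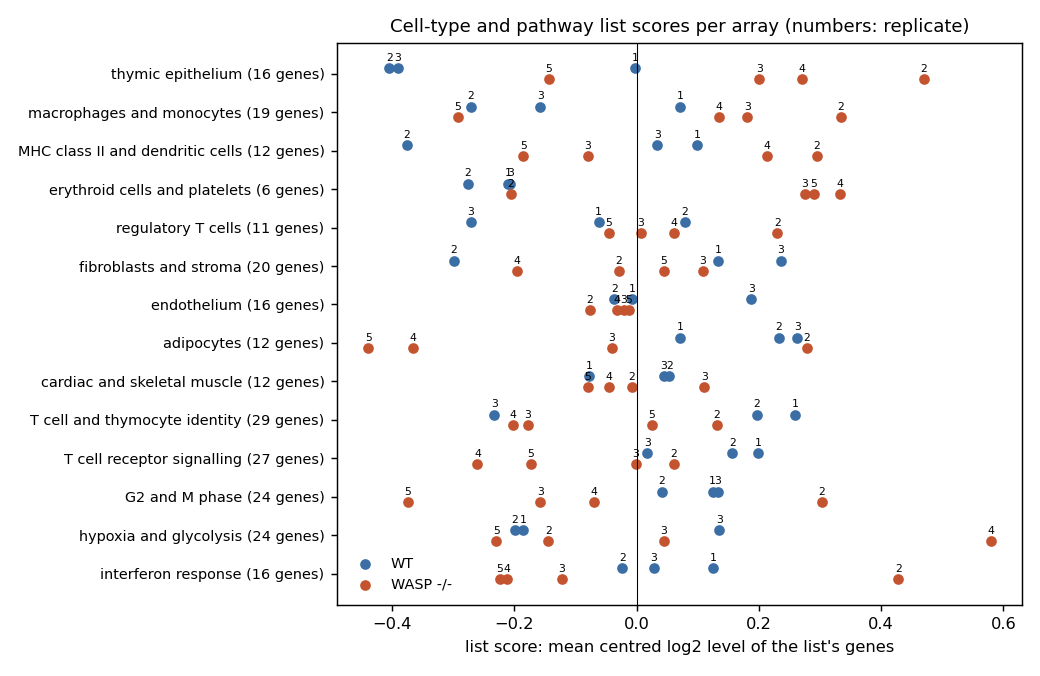
Mean centred log2 level (horizontal axis) of the tested genes of 14 lists on each of the 7 Cd2-low arrays, with replicate numbers beside the points. The genotypes overlap in most lists; thymic epithelium ranges from -0.40 to -0.002 in WT and from -0.14 to 0.47 in WASP -/-, and T cell receptor signalling from 0.02 to 0.20 and from -0.26 to 0.06.

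Genes of the T cell itself were mostly a little lower without WASP, and none passed. T cell receptor signalling had 25 of 27 tested genes lower and 2 higher, with a median of -0.16 against -0.02 over all genes. The median stayed between -0.20 and -0.0987 under 16 other settings. Its scores lay at 0.02 to 0.20 on the WT arrays and at -0.26 to 0.06 on the WASP -/- arrays, and 3 of the 4 WASP -/- arrays were below every WT array. Skap1, an adaptor for integrin activation, Nck1, an adaptor that recruits WASP, and Cd5, an inhibitory receptor, were lower on every WASP -/- array, by -0.49, -0.17 and -0.19. The kinase gene Txk differed by -0.83, Zap70 by -0.56 and Prkcq by -0.49, with overlapping groups. T cell and thymocyte identity had 20 of 29 lower and a median of -0.13, which turned to 0.039 with Xist as a covariate and to 0.080 among the Xist-low arrays, with Cd7 higher and Cd5 lower on every WASP -/- array. Integrins, adhesion and homing had 22 of 32 lower and a median of -0.08 (-0.13 to -0.0001 under 16 other settings). This median was -0.039 with Xist as a covariate and nearest to no difference, at -0.0001, among the Xist-low arrays. Fermt3, the kindlin that activates integrins in blood cells, was lower on every WASP -/- array, by -0.36. Over all genes, 7223 of 12670 were lower, so a majority of lower genes is not in itself particular to these lists. The share in T cell receptor signalling, 25 of 27, was larger, and no list was tested as a set.

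Among signalling and proliferation lists, G2 and M phase lay lowest, and no gene passed. ALK and STAT3 targets had 12 of 28 tested genes higher and a median of -0.03 (0.032 without WASP -/- replicate 3), with Stat5a lower on every WASP -/- array, by -0.30. MAPK feedback and immediate early genes had 14 of 27 higher and a median of 0.06 (-0.015 without WASP -/- replicate 5), with Egr2 higher and Fos lower on every WASP -/- array, by 0.31 and -0.43. All 24 tested G2 and M phase genes were lower on average, with a median of -0.17 against -0.02 over all genes (-0.29 to -0.023 under 16 other settings, and -0.069 without WASP -/- replicate 5). Their scores lay on the WT arrays at 0.04 to 0.13, on WASP -/- replicate 2 at 0.30 and on WASP -/- replicate 5 at -0.37, so the WASP -/- arrays lay on both sides of the WT arrays. Mki67, the proliferation marker, differed by -0.27. G1 and S phase had 20 of 27 lower and a median of -0.07 (0.0078 without WT replicate 3), with Ccnd3, a D-type cyclin gene, lower on every WASP -/- array, by -0.15. Hypoxia and glycolysis had 18 of 24 higher and a median of 0.10, with WASP -/- replicate 4 at a score of 0.58 and a median of -0.0054 without that array and of -0.069 with Xist as a covariate, and the interferon response had 9 of 16 lower, near the share over all genes. The interferon median of -0.09 was 0.0064 without the filter and -0.0040 without WASP -/- replicate 3.

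The genes around Was on the X chromosome were read beside it. Of 25 tested flanking genes, 8 were higher and 17 lower, with a median of -0.02, as over all genes, and 0 had groups that were apart, against 4.06% of all genes, so these counts show nothing particular to the region. Of 8 tested sex-linked genes, 3 were higher and 5 lower and 0 passed. Xist differed by -4.12 and Kdm5d by 2.35. Without WT replicate 3, whose levels overlap those of the WASP -/- arrays in these 3 genes, Xist, Kdm5d and Uty passed, and Eif2s3y did not (limma adjusted p = 0.407).

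Genotype differences that themselves differed between the Cd2 sets concerned other genes. The test called 13 genes (0.103%), 4 with a more positive difference in the Cd2-low set and 9 with a more negative one. The difference between the differences was 3.29 for the zinc finger gene Zfp182, 2.54 for Zfp827, 2.48 for the receptor phosphatase gene Ptprg and 1.82 for Prex2, a RAC exchange factor gene. It was -4.56 for Ctse, an aspartic protease gene, -3.72 for the CD3 chain gene Cd3g, -3.46 for S100b, -3.04 for Arsi and -1.91 for Dgkh, a diacylglycerol kinase gene. Cd3g lay at 11.45 to 12.23 on all Cd2-low arrays, at 6.29 and 6.97 on the WT Cd2-high arrays and at 10.24 on the WASP -/- Cd2-high array. Its genotype difference in the Cd2-low set was -0.11. These calls therefore rested on the single WASP -/- Cd2-high array.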

How the data were processed

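The authors deposited 1 microarray per mouse as probe set intensity values; the submitters' processing notes name RMA. That method equalises the distributions of the arrays, so array-wide shifts in RNA amount cannot be read. Its software version and annotation are not given in the sources used. Deposited values of 3.309 to 15587.9 showed a linear scale, so log2 was taken, and 0 columns of other samples were left unused.

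Of 34760 probe sets, 21640 had 1 gene symbol in the platform annotation, 1321 had several and 11799 were not listed. Probe sets under the 40th percentile of all means over the 10 arrays (log2 6.35, linear 81.7) were left out. The probe set with the highest mean was kept per gene, which gave 12670 genes; of 7099 unnamed probe sets tested apart, 0 passed and 200 had an unadjusted p under 0.05. Arrays with Cd2 under log2 9 were compared by genotype with limma 3.58.1 (lmFit and eBayes) in R 4.3.3, without covariates, with Benjamini-Hochberg adjustment over all genes tested and a threshold of 0.05. The fit had 5 residual degrees of freedom and was tested on simulated data. The difference between Cd2 sets used all 10 arrays as 4 cell means. Plots used Python 3.11.15 and matplotlib 3.10.9.

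Genes were named by a rule: Was, Ybx3 and Cd2, genes past the threshold, the 15 largest differences per direction among genes outside the sex-linked list whose groups did not overlap, the 3 members of smallest p in each of 28 lists (609 symbols, 465 tested), and sex-linked genes. Other genes were named after their values were seen. The members and lists were chosen with earlier results of these data known, and a list of iron and heme genes was added after seeing values. The labels call the replicates biological, so p-values measure the spread between mice. Groups come from the genotype labels. The mean correlation between arrays was 0.970 and 0 columns were identical. The alternatives covered filters, scaling, variance models, Xist, the replicate number as a block and leaving out each array.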

Additional observations from a re-analysis of the deposited data

Results flagged for a closer look

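In several genes 1 of the 4 WASP -/- Cd2-low arrays lay far from the other 3, measured as its gap to the nearest array over the range of the 4. Among 116 named genes and 29 list scores checked, 14 genes and 3 scores passed Dixon's critical value for 4 samples, and chance alone gives about 1 in 20 groups. WASP -/- replicate 2 was low for Cers4 (ratio 0.865), Ccdc50 (0.834) and the Y-linked gene Eif2s3y (0.851). WASP -/- replicate 3 was high for Adam8 (0.898) and low for Lipo3 (0.943), and WASP -/- replicate 4 was high for Atp4a (0.889) and low for Dpt (0.987). WASP -/- replicate 5 was low for the haptoglobin gene Hp (0.852). The ratio was 0.874 for the stress gene Atf3, 0.839 for Mrc1, 0.83 for the lysosomal protease gene Ctss, 0.887 for the lung protease gene Napsa, 0.837 for Prex2 and 0.872 for Arsi. Of the list scores, the interferon response had 0.845, with WASP -/- replicate 2 high, erythroid cells and platelets 0.892, with replicate 2 low, and the genes flanking Was 0.937.

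The genotype difference itself differed between the Cd2-low and the Cd2-high arrays for 9 named genes, by a test of that difference over all genes (limma adjusted p under 0.05). The values, Cd2-low minus Cd2-high, were 3.29 for Zfp182, 2.54 for Zfp827, 2.48 for Ptprg, 1.82 for Prex2, -1.91 for Dgkh, -3.04 for Arsi, -3.46 for S100b, -3.72 for Cd3g and -4.56 for Ctse. All rest on the 1 WASP -/- array with high Cd2. On that array Zfp182 lay at 4.72, against 6.64 to 7.45 on the Cd2-low arrays of both genotypes, and S100b at 10.43, against 5.84 to 6.10.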

How the results depend on the processing

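The number of genes past the threshold was 2. It was 6 with array weights, 4 with all 10 arrays as 4 cell means, and 0 with unequal variances, with Xist as a covariate and among the Xist-low arrays alone (331, 361 and 253 genes had an unadjusted p under 0.05). Leaving out 1 array gave 0 to 5. The labels do not say that same-numbered arrays belong together. For replicate numbers 2 and 3, the deviations of same-numbered arrays from their group means correlated at 0.0803 and 0.0463. These 2 values are too few to settle whether the arrays were paired. With the replicate block 169 genes passed, a fit that rests on 2 shared numbers. Genes whose groups did not overlap numbered 515, and 846 without the filter, 307 with the filter at the 60th percentile, 3234 among the Xist-low arrays and 874 to 1663 with 1 array left out, where fewer arrays are set apart.

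Was kept its direction under all 20 settings and missed the threshold at -1.11 with unequal variances, -1.08 with Xist as a covariate and -1.06 among the Xist-low arrays. Leaving out 1 array gave -1.15 to -1.07. Ybx3 did so too, at 2.20, 1.97 and 1.98 and with 2.04 to 2.33. The 13 genes whose difference differed between Cd2 sets became 40 without the filter, 4 at the 60th percentile, 7 with the filter from the 7 arrays and 74 with array weights. The cause of these moves was not tested.

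Among the named genes, reversed values were confined to those that did not pass within the Cd2-low arrays. Some list medians changed sign as well. Of 16 settings, cold-shock domain proteins did so in 8, the partners and targets of Ybx3 in 7, B cells in 6 and hypoxia and glycolysis in 4. Others, such as T cell receptor signalling and G2 and M phase, did so in 0. With array weights Cd2 was at -0.092 and Cd3g at 0.11. With Xist as a covariate Lin28a was at -0.024, Cst7 at 0.14 and Eif2s3y at -0.28. Among the Xist-low arrays Txk was at 0.0078, Lin28a at -0.054, Itgax at -0.0099, Ctsw at 0.033, Cst7 at 0.20, Uty at -0.071, Xist at 0.69 and Eif2s3y at -0.91. With the replicate block Tjp3 was at 0.033, Mzb1 at 0.097, Ctsw at 0.095 and Hopx at -0.033. Leaving out 1 array gave -0.076 to 0.22 for Cd2, -0.035 to 0.11 for Lin28a, -0.89 to 0.22 for Cd72, -0.037 to 0.21 for Hopx, -0.093 to 0.015 for Napsa, -0.26 to 0.011 for Zfp182, -0.15 to 0.012 for Prex2 and -0.22 to 0.077 for Cd3g. The precision is limited by 3 and 4 arrays per genotype.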
